A study of Mus musculus with 3 samples.

Results

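Lysine tRNA fragments are the small RNA reads counted on tRNA genes for lysine. They were taken as all genes whose name begins with tRNA-Lys-CTT or tRNA-Lys-TTT, the 2 anticodons of lysine, which gave 40 of the 446 tRNA genes in the gene table. Of these, 26 were Lys-CTT genes and 14 were Lys-TTT genes, and 34 had at least 1 read (24 Lys-CTT and 10 Lys-TTT). The last number of a name tells gene copies apart, and the number before it names the isodecoder, a group of copies that share a mature sequence. The reads came from mouse epididymis, the duct in which sperm mature, in 1 library labelled wild type and 2 labelled Alkbh3-/-, called knockout 1 and knockout 2 here. Per the labels' protocols, RNA of 15 to 50 nt was cut from a gel before library preparation. The wild-type label also reads B6WT, and no strain is given for the knockouts. The labels state no sex or age, nor how the allele was made or whether the knockout libraries came from separate animals. The p-values therefore measure only the spread between these libraries, which may be technical, and the lone wild type is assumed to vary like the knockout libraries.

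A tRNA carries an amino acid to the ribosome and reads a codon with its anticodon. Lys-CTT reads the codon AAG, and Lys-TTT reads AAA and, through a modified wobble uridine, also AAG. When tRNAs are cut in the anticodon loop by nucleases such as angiogenin, they leave 5′ and 3′ fragments of nearly equal size, and the epididymis and maturing sperm are rich in such fragments, mostly 5′ ones. The enzyme ALKBH3 strips methyl groups from 1-methyladenosine and 3-methylcytidine, base modifications found in tRNA.

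Sequencing depth, the sum over 5 RNA classes, was 15107055 reads for the wild type, 15411457 for knockout 1 and 21169908 for knockout 2. Reads on tRNA were 44.7%, 36.5% and 38.1% of this depth, and miRNA reads 15.1%, 24.8% and 30.7%. The gene table assigned 111871, 112802 and 127687 reads to lysine tRNA genes. All levels below are reads scaled to this depth (RPM, the usual reads-per-million scale), on which 3 reads, the limit that a count of 0 allows, equal 0.199, 0.195 and 0.142 RPM. The miRNA share, which is part of this scale, was higher in both knockouts, and fitted values shift with the scaling. In bulk tissue, fewer cells of a type and less RNA per cell cannot be told apart.

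Lys-CTT fragments were abundant and Lys-TTT fragments scarce in every library, and neither passed the test between genotypes. tRNA-Lys-CTT stood at 6977 RPM in the wild type, against 7010 in knockout 1 and 5679 in knockout 2. The wild type lay between the knockout libraries, whose mean was 6345 ± 941 RPM (SD, n = 2), so the groups overlapped. The log2 fold change, knockout against wild type, was -0.14 with a standard error of 0.32 and a 95% confidence interval from -0.76 to 0.48 (edgeR's quasi-likelihood test, adjusted p = 0.739). Its sign turned with the scaling, to 0.13 with TMM composition factors, 0.13 with column sums as library size, 0.09 without miRNA reads in the library size and 0.19 with DESeq2. Among anticodons, Lys-CTT ranked 4 in abundance in all 3 libraries, with 2.63%, 3.23% and 2.52% of the gene table's reads.

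tRNA-Lys-TTT stood at 429 RPM in the wild type, against 309 in knockout 1 and 352 in knockout 2. Both knockout libraries were below the wild type, with a mean of 331 ± 30.6 RPM (SD, n = 2). The log2 fold change was -0.37 with a standard error of 0.52, and the 95% confidence interval ran from -1.40 to 0.65 (edgeR, adjusted p = 0.670). It stayed below 0 and nearer to it under the other scalings, at -0.12 with TMM factors, -0.11 with column sums, -0.13 without miRNA reads and -0.06 with DESeq2. Lys-TTT ranked 10 in the wild type and 11 in both knockout libraries, with 0.161%, 0.143% and 0.156% of the reads.

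Across the 45 anticodons tested, 5 were called (11.1%), 1 higher and 4 lower in the knockouts, and neither lysine anticodon was among them. The median log2 fold change of all anticodons tested was -0.29, with 28 of 45 below 0. Relative to that median, Lys-CTT was 0.16 higher and Lys-TTT was lower, with a difference of -0.08. These distances ranged from 0.11 to 0.20 for Lys-CTT and from -0.17 to -0.06 for Lys-TTT over all alternatives tried. The values of 0.11 and -0.17 came from the per-library counts. The median itself moved to between -0.01 and -0.05 with DESeq2, TMM factors, column sums or library sizes that leave out miRNA.

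**Figure D1:**
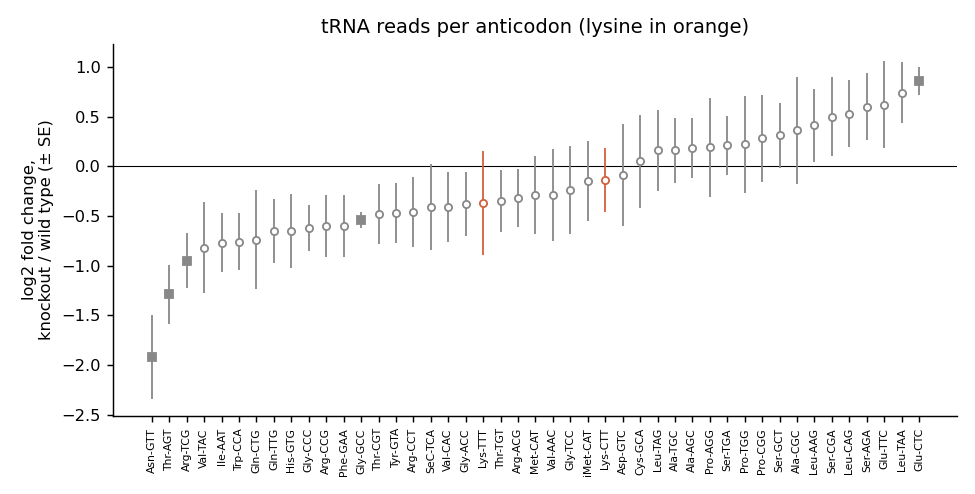
Log2 fold change, knockout against wild type, with its standard error, for each of the 45 anticodons tested, ordered by value. Filled squares mark an adjusted p under 0.05 and open circles the rest, and the lysine anticodons (orange), at -0.14 and -0.37, are both open circles in the middle of the order.

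Lys-CTT reads outnumbered Lys-TTT reads 16.3 to 1 in the wild type, against 22.7 to 1 in knockout 1 and 16.1 to 1 in knockout 2. Knockout 2 was at the wild-type ratio and knockout 1 above it, so the knockout mean of 19.4 ± 4.64 (SD, n = 2) spanned the wild type. The per-library tables, which hold more tRNA reads in total though not for every gene, gave ratios of 24.9, 35.7 and 25.4 in the same order. They held 1.55, 1.56 and 1.55 times the gene table's Lys-CTT reads, but 1.01, 0.991 and 0.983 times its Lys-TTT reads, so the ratio depends on the table. Knockout 1 had the highest ratio in both, and the order of the wild type and knockout 2 differed between them.

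Nearly all lysine reads came from 3 isodecoders. Lys-CTT-3, with 7 copies, held 91.6%, 93.8% and 90.2% of the Lys-CTT reads in the wild type, knockout 1 and knockout 2, at 6390, 6574 and 5125 RPM. Lys-CTT-2, with 2 copies, held 8.24%, 6.11% and 9.59%, at 575, 428 and 544 RPM. The Wilson 95% intervals of the Lys-CTT-2 share ran from 8.08% to 8.41%, from 5.97% to 6.26% and from 9.42% to 9.75%, and cover counting error only. They did not overlap, with the wild type between the knockout libraries, so the libraries of a single genotype differed more than counting error. Lys-TTT-1, with 6 copies, held 99.0%, 98.5% and 98.4% of the Lys-TTT reads, at 425, 304 and 346 RPM. The other 17 Lys-CTT genes together reached 11.9, 7.85 and 10.2 RPM, and the other 8 Lys-TTT genes 4.17, 4.61 and 5.81 RPM.

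**Figure D2:**
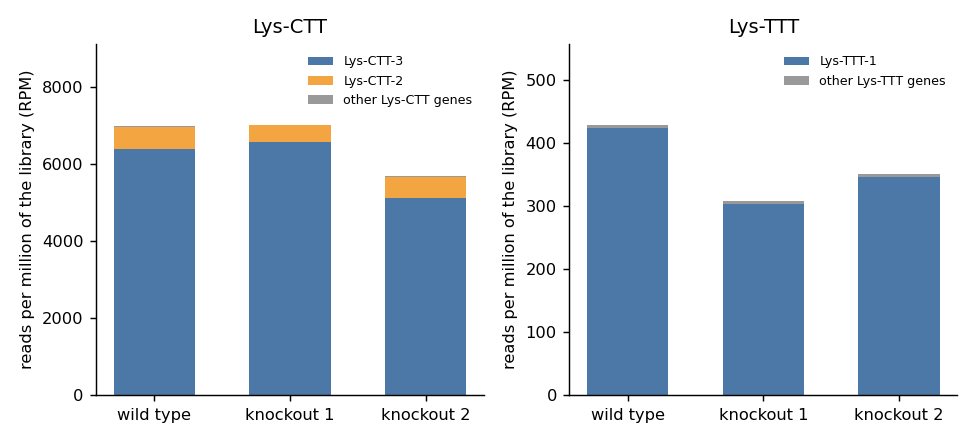
Levels in RPM of Lys-CTT (left) and Lys-TTT (right) in the wild type and both knockout libraries, stacked by isodecoder, on separate linear axes starting at 0. Lys-CTT-3 makes up 90.2% to 93.8% of Lys-CTT, and the wild-type Lys-TTT bar, at 429 RPM, is the tallest of its panel.

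In the gene table, copies of Lys-CTT-3 and of Lys-CTT-2 gave nearly equal values and those of Lys-TTT-1 more uneven ones. The per-library counts of the 6 Lys-TTT-1 copies were more even, at 984 to 1204 reads in the wild type, and in another order. Lys-TTT-1-1 was highest there and Lys-TTT-1-3 lowest, and the gene table held 0.718 to 1.24 times these counts. The near-identical copies leave no way to say which gene a read came from, so single genes are given as deposited and not as independent measurements. The Lys-CTT-3 copies ranged from 878 to 962 RPM in the wild type, with 901 to 984 in knockout 1 and 703 to 770 in knockout 2. The wild type lay between the knockout libraries in 7 of 7 copies. The 5 highest were Lys-CTT-3-6 (mm10 chr17:23535332-23535404, minus strand), Lys-CTT-3-3 (chr11:48833883-48833955, minus), Lys-CTT-3-2 (chr3:96499512-96499584, minus), Lys-CTT-3-7 (chr17:23547360-23547432, plus) and Lys-CTT-3-1 (chr3:96428235-96428307, plus). Lys-CTT-3-3 lies in an intron of Trim7, a protein-coding gene on the opposite strand, and the other 4 lie outside GENCODE genes other than tRNA genes. Their log2 fold changes ran from -0.15 to -0.10 (edgeR, adjusted p from 0.925 to 0.929), and turned to between 0.04 and 0.18 with TMM factors, column sums, no miRNA reads in the library size or DESeq2.

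The 2 copies of Lys-CTT-2, on chromosome 9 (chr9:90126509-90126581, minus) and chromosome 12 (chr12:70969120-70969192, minus), had 293 and 282 RPM in the wild type. They had 213 and 215 RPM in knockout 1 and 270 and 275 in knockout 2, so the wild type was highest for both, by a small margin over knockout 2. Their log2 fold changes were -0.28 and -0.20 (edgeR, adjusted p = 0.889 and 0.925), and that of Lys-CTT-2-2 reached 0.06 with TMM factors or column sums.

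Of the Lys-TTT-1 copies, Lys-TTT-1-5 (chr19:12006039-12006111, plus) had 84.7 RPM in the wild type, against 61.9 in knockout 1 and 68.6 in knockout 2. Its neighbour Lys-TTT-1-6 (chr19:12009696-12009768, minus) had 83.8, 60.0 and 64.0 RPM. Lys-TTT-1-3 (chr11:69125176-69125248, minus) had 80.6, 56.1 and 64.3 RPM. In these 3 copies both knockout libraries were below the wild type. Lys-TTT-1-1 (chr1:133033962-133034034, plus) had 64.0, 46.4 and 59.0 RPM, and Lys-TTT-1-4 (chr13:21168075-21168147, minus) had 63.9, 44.3 and 49.9 RPM. The wild type was highest in 6 of 6 copies, which are not independent measurements. Over all tRNA genes tested, 66.4% were fitted below 0. The log2 fold changes of the 6 copies, from -0.44 to -0.28, did not pass the test (edgeR, adjusted p from 0.796 to 0.902).

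**Figure D3:**
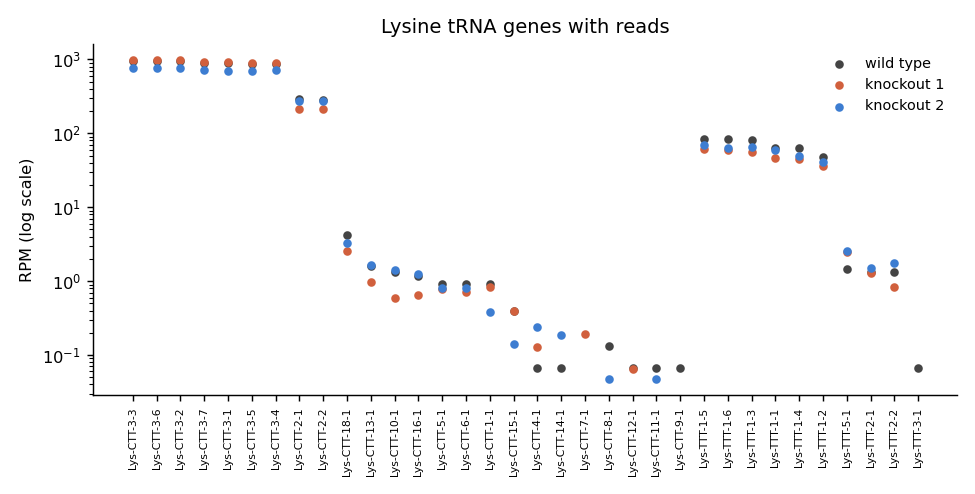
Level in RPM, on a log axis, of each of the 34 lysine tRNA genes with reads in each library, Lys-CTT genes first, ordered by mean level, with values of 0 not drawn. The 7 Lys-CTT-3 copies sit between 703 and 984 RPM in all libraries, and the 6 Lys-TTT-1 copies between 35.7 and 84.7 RPM.

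Over all tRNA genes, 41 of 348 tested were called (11.8%), and 0 of the 25 lysine genes tested were among them by edgeR. At an unadjusted p under 0.05 by edgeR there were 0 lysine genes, beside 54 of all 348 tested. DESeq2 called 0 of 34 lysine genes, and its count over all genes is not given here. All 16 Lys-CTT genes tested were fitted below 0, from -0.66 to -0.10 with a median of -0.21, beside a median of -0.17 over all genes tested, of which 66.4% were below 0. The direction was not kept under other scalings, where 10 of the 16 were above 0 with TMM factors, column sums or a library size without miRNA. Their lowest adjusted p was 0.628. Of the other Lys-CTT genes, 8 had at most 6 reads in any library and were not tested, and 2 had none. Of the 9 Lys-TTT genes tested, 6 were fitted below 0 and 3 above, with a median of -0.32. A further Lys-TTT gene had 1 read and 4 had none.

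Lysine fragments were mainly 30 to 36 nt long, the size range that a cut in the anticodon loop leaves. The most frequent length was 33 nt for both isoacceptors in all 3 libraries. Lys-CTT had 93.8% of its reads at 30 to 36 nt in the wild type, against 95.7% in knockout 1 and 93.8% in knockout 2. Lys-TTT had 90.2%, 84.1% and 82.9%, beside 94.2%, 91.4% and 90.6% for all tRNAs other than lysine. For Lys-TTT the share was lower in both knockouts, with a mean difference of -6.74 percentage points and an SD of 0.875 between the knockout libraries. Among the 24 anticodons with at least 1000 reads in every library, this share was higher in both knockouts for 9 and lower in both for 7. Lys-TTT had the lowest ratio of the knockout mean to the wild type, 0.925, beside a median of 1.01. No test was made of shares, since no permutation of 3 libraries can give a p below 0.333.

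Within that window the isoacceptors and the other tRNAs differed. Reads of 31 and 32 nt made up 44.7%, 42.0% and 44.2% of Lys-CTT in the wild type, knockout 1 and knockout 2. They made up 21.6%, 20.3% and 21.0% of Lys-TTT. In the other tRNAs, reads of 31 nt alone made up 58.7%, 47.2% and 46.8%. Reads of 33 and 34 nt together held 36.6%, 46.6% and 37.8% of Lys-CTT and 52.9%, 52.8% and 47.5% of Lys-TTT, against 4.90%, 12.5% and 10.5% in the other tRNAs. Lys-CTT therefore supplied 16.1%, 11.2% and 7.91% of all 33 nt tRNA reads but 0.962%, 1.37% and 1.12% of the 31 nt reads. The 33 nt reads of tRNAs other than lysine stood at 14234 RPM in the wild type and at 28578 and 25534 in the knockouts, beside the lower Lys-CTT share there.

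Knockout 1 had fewer of the longer lysine reads than the other 2 libraries. Reads of 35 and 36 nt were 9.49% of Lys-CTT in the wild type, against 4.33% in knockout 1 and 8.81% in knockout 2. In the same order, the other tRNAs had 1.51%, 3.06% and 2.92%, so knockout 1 was not low in that pooled sum. Lys-TTT had 11.3%, 7.56% and 11.2%, with knockout 1 again lowest. Over the 24 anticodons with at least 1000 reads in every library, the share was higher in both knockouts for 12 and lower in both for 7. The 7 Lys-CTT-3 copies all showed the pattern, with 7.71% to 8.06%, 3.49% to 3.82% and 6.64% to 7.33%, although their reads cannot be assigned to single copies.

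**Figure D4:**
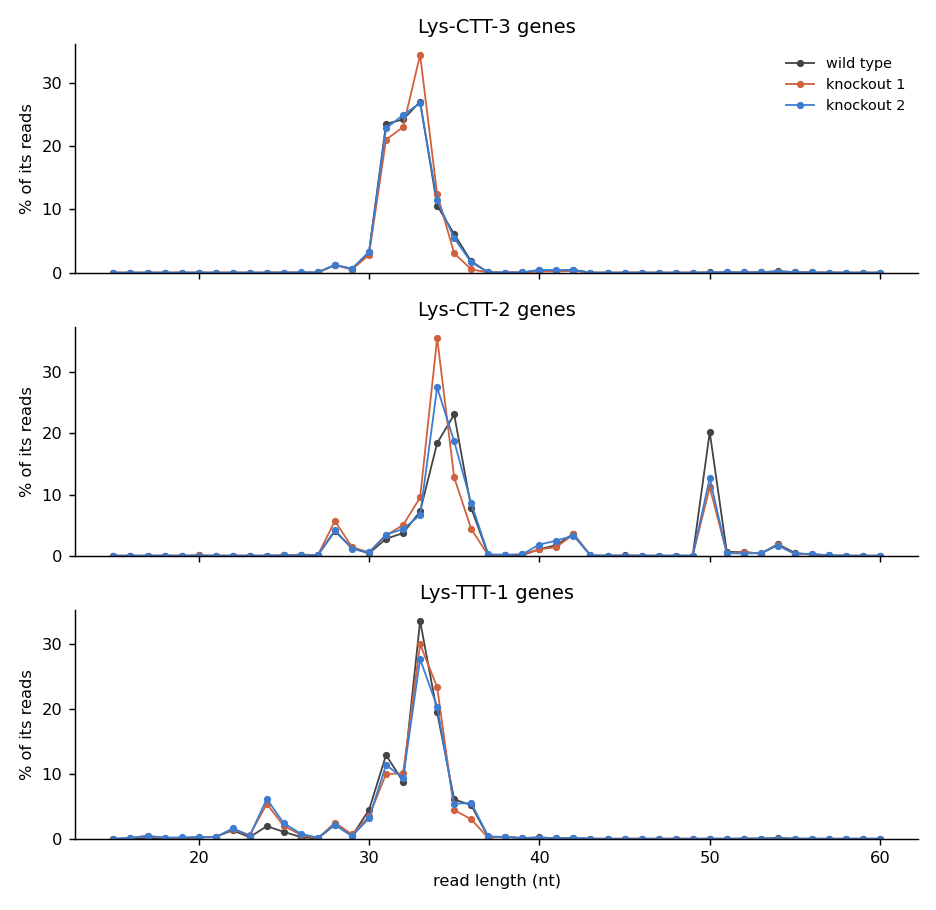
Share of reads at each length, in percent of the isodecoder's reads in a library, for Lys-CTT-3, Lys-CTT-2 and Lys-TTT-1, with a line per library. Lys-CTT-3 and Lys-TTT-1 peak at 33 nt, Lys-CTT-2 peaks at 34 or 35 nt with a further peak at 50 nt, and Lys-TTT-1 has a small peak at 24 nt that is higher in the knockout libraries.

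Fragments were tested as sums per anticodon, read class and length. The per-library tables count reads in 2 classes that carry no description, called the first and the second class after the order of the columns. Of 834 features tested, 18 were called (2.16%), and 0 of the 65 lysine features tested were among them by edgeR, of 135 lysine features with reads. At an unadjusted p under 0.05 there were 2 lysine features by edgeR, beside 103 of all 834 tested. DESeq2 called 0 lysine features, and its count over all features is not given here. Of the 65, 46 were fitted below 0 and 19 above, beside 422 of 834 (50.6%) below 0 over all features tested. Their median was -0.23, beside -0.01 over all features tested.

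The most abundant feature was the 33 nt Lys-CTT read of the first class, at 2751 RPM in the wild type, against 3602 in knockout 1 and 2202 in knockout 2. The knockout libraries lay on either side of the wild type, and the log2 fold change was 0.08 with a standard error of 0.33 (edgeR, adjusted p = 0.954). The 32 nt read stood at 2444, 2406 and 2027 RPM and the 31 nt read at 2373, 2185 and 1855 RPM. Both were highest in the wild type, with log2 fold changes of -0.14 and -0.23 (edgeR, adjusted p = 0.897 and 0.825). The 34 nt read, at 1200, 1490 and 1118 RPM, again had the wild type between the knockouts. The 35 nt read had 786, 393 and 578 RPM, with both knockouts lower (log2 fold change -0.69, standard error 0.40, edgeR, adjusted p = 0.494).

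For Lys-TTT, the 33 nt read of the first class stood at 144 RPM in the wild type, against 90.7 in knockout 1 and 93.9 in knockout 2. The knockout libraries were close to each other and below the wild type, and the log2 fold change was -0.64 with a standard error of 0.51 (edgeR, adjusted p = 0.654). The 34 nt read had 80.6, 70.1 and 67.9 RPM, and the 31 nt read had 55.1, 30.3 and 39.0 RPM. The 32 nt read had 37.7, 31.5 and 32.5 RPM, and the 35 nt read 26.1, 13.4 and 17.9 RPM. All 5 were lower in both knockouts on this scale, while 422 of all 834 features tested were fitted below 0. The 5 log2 fold changes ran from -0.74 to -0.22, and none passed the test (edgeR, adjusted p from 0.654 to 0.897). Those of the 34 and 32 nt reads were 0.06 and 0.05 with column sums as library size, and 0.01 and 0.00 without miRNA reads.

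Lys-TTT reads of 23 to 26 nt were higher in both knockouts at each length, a feature singled out after its values were seen. Reads of 16 to 20 nt were also higher in both knockouts at each length, on at most 33 reads per length and library. At 17 nt they had 0.530, 1.36 and 1.56 RPM. Not all short reads were higher. The 21 nt read had 1.46, 0.779 and 0.756 RPM, the 22 nt read 5.56, 4.48 and 5.48, and the 28 nt read 9.53, 8.11 and 7.70. Reads of 24 nt in the first class numbered 126, 251 and 441, or 8.34 RPM in the wild type, against 16.3 in knockout 1 and 20.8 in knockout 2. Both knockouts were higher, with a mean of 18.6 ± 3.21 RPM (SD, n = 2) and a log2 fold change of 1.15, standard error 0.68 (edgeR, adjusted p = 0.495), so the difference did not pass the test. Nearly all these reads, 100%, 99.6% and 99.8%, were counted on Lys-TTT-1.

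Reads of 22 to 26 nt made up 4.80% of Lys-TTT in the wild type (Wilson 95% interval 4.31% to 5.34%), 9.94% in knockout 1 (9.12% to 10.8%) and 11.2% in knockout 2 (10.5% to 11.9%). Both knockouts lay above the wild type beyond counting error, in a length class set after these values were seen. The level of these reads was 20.8, 30.4 and 38.8 RPM, while all other Lys-TTT reads together went from 412 RPM to 276 and 308. A higher share of these short reads thus stood beside fewer reads of the other lengths in sum. In Lys-CTT the same lengths made up 0.0522%, 0.0606% and 0.0580%, and in tRNAs other than lysine 0.372%, 0.431% and 0.540%.

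This length class, drawn around Lys-TTT lengths already seen to be higher in the knockouts, was also compared over the same 24 anticodons. That choice favoured a high rank for Lys-TTT. Lys-TTT ranked 3 by its share in the wild type, with ranks 1 and 2 in knockouts 1 and 2, and Lys-CTT ranked 23, 23 and 21. The share was higher in both knockouts for 16 of the 24 anticodons and lower in both for 4. The ratio of the knockout mean to the wild type was 2.20 for Lys-TTT, the second highest of the 24, and 1.14 for Lys-CTT, beside a median of 1.29. At 24 nt alone, Lys-TTT had the highest share of the 24 anticodons in each library, while its ratio of knockout mean to wild type, 2.94, ranked 5 beside 2.67 for Lys-CTT and a median of 1.74. Lys-CTT had only 1, 1 and 5 reads of that length. Lys-TTT supplied 4.39%, 7.98% and 6.86% of all 24 nt tRNA reads.

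**Figure D5:**
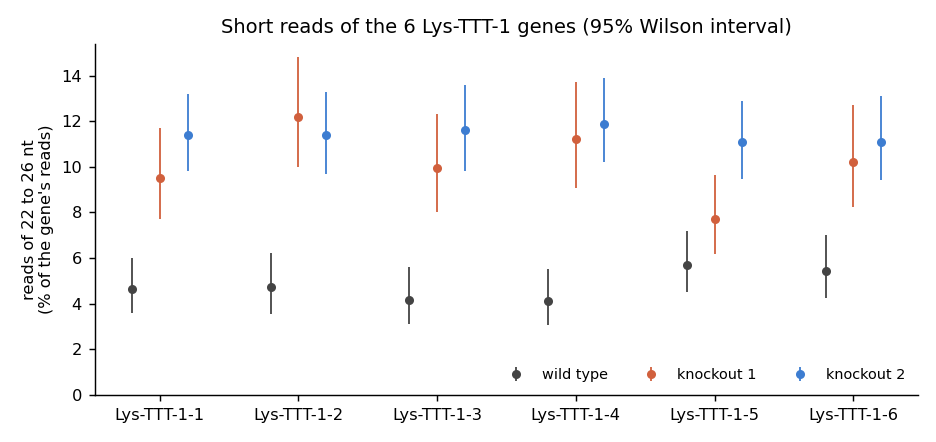
Reads of 22 to 26 nt as a percentage of each Lys-TTT-1 gene's reads, by library, with Wilson 95% intervals that cover counting error only. In all 6 copies, whose reads cannot be told apart, both knockout points lie above the wild-type point, at 7.73% to 12.2% and 11.1% to 11.9% against 4.11% to 5.70%.

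Lys-CTT-2 gave fragments unlike those of Lys-CTT-3, also noticed after the values were seen. Its most frequent length was 35 nt in the wild type and 34 nt in both knockouts, against 33 nt for Lys-CTT-3. Reads of exactly 50 nt were 20.2% of Lys-CTT-2 in the wild type, against 11.2% in knockout 1 and 12.7% in knockout 2, but 0.0344%, 0.0126% and 0.0247% of Lys-CTT-3. Lys-CTT-2 thus supplied 97.6%, 97.8% and 97.4% of the 50 nt Lys-CTT reads. Both copies were alike, with 19.9% to 20.5%, 11.1% to 11.2% and 12.6% to 12.8%. A length of 50 nt is the upper edge of the gel cut.

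The 50 nt Lys-CTT read of the first class stood at 158 RPM in the wild type, against 69.0 in knockout 1 and 98.5 in knockout 2. Both knockouts were lower, with a log2 fold change of -0.92 and a standard error of 0.50, which did not pass the test (edgeR, adjusted p = 0.433). Summed over tRNAs other than lysine, 50 nt reads stood at 1965 RPM in the wild type and at 5495 and 5218 in the knockouts, a sum that a few abundant tRNAs can carry. As a share of each anticodon's reads, 50 nt reads were lower in both knockouts for 11 of the 24 anticodons compared and higher in both for 7, with a median ratio of the knockout mean to the wild type of 0.897, beside 0.597 for Lys-CTT. Lys-CTT-2 reads of other lengths stood at 612, 537 and 658 RPM, on either side of the wild type. At 34 nt, its share was 18.4%, 35.6% and 27.5%, higher in both knockouts.

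Almost all lysine reads belonged to the first class. The second class held 93, 68 and 102 Lys-CTT reads, or 0.0571%, 0.0404% and 0.0548%, and 111, 46 and 158 Lys-TTT reads, or 1.70%, 0.975% and 2.16%. The wild type lay between the knockout libraries for Lys-TTT, and was the highest for Lys-CTT with Wilson intervals that overlapped those of both knockouts. The other tRNAs had 0.384%, 0.426% and 0.426% in this class. The 2 lysine features at an unadjusted p under 0.05 were Lys-TTT reads of the second class, chosen here after their values were seen. The 34 nt read had 65, 10 and 44 counts (log2 fold change -1.63, edgeR, adjusted p = 0.225), and the 35 nt read 1, 3 and 30 (log2 fold change 3.51, edgeR, adjusted p = 0.301). In the latter, knockout 2 supplied nearly all reads.

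Lysine tRNAs belong to groups of tRNAs that share a modification. Anticodons that read codons beginning with A carry N6-threonylcarbamoyladenosine (t6A) next to the anticodon. The list used here holds 12 and leaves out the initiator iMet-CAT (log2 fold change -0.15, edgeR, adjusted p = 0.739). Of the 12 listed, 10 were tested, 0 rose and 2 fell, Asn-GTT with a log2 fold change of -1.92 and Thr-AGT with -1.29 (edgeR, adjusted p = 0.000515 and 0.00128). Over all anticodons tested, 5 of 45 (11.1%) were called. With a library size without miRNA reads, or with column sums, neither of the 2 was called (adjusted p = 0.0547 and 0.409, and 0.0926 and 0.0511), and with DESeq2 Thr-AGT was not (adjusted p = 0.111). The median of the 10 was -0.42 beside -0.29 over all, 9 were below 0 beside 28 of 45, and Lys-CTT at -0.14 and Lys-TTT at -0.37 lay above that median. Anticodons with a thiolated, side-chain-modified wobble uridine numbered 4, of which 3 were tested and 0 were called by edgeR. These were Gln-TTG at -0.65 (adjusted p = 0.215, and 0.0490 unadjusted), Lys-TTT at -0.37 and Glu-TTC at 0.62 (adjusted p = 0.387). Their median of -0.37 was thus the Lys-TTT value itself.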

How the data were processed

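The authors deposited read counts that were not normalized, per the file headers and values: a count per RNA class and library, a count per tRNA gene, and, in 1 table per library, a count per gene in each of 2 read classes with a list of read lengths and their counts. The lists of read lengths in the deposited tables (unit: other) summed to the class counts with 0 exceptions. The submitters' processing notes name mm10 and cutadapt. The aligner, the counting tool, the treatment of reads matching several gene copies, and why the gene table (59.1% to 59.4% of the tRNA class) holds fewer reads than the per-library tables (94.1% to 95.5%) were not given in the sources used here. All per-sample columns were used.

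Counts were summed per anticodon, or per anticodon, read class and length, and also tested per gene. Genotypes were compared over each whole table with a two-sided quasi-likelihood test in edgeR 4.0.16 (R 4.3.3). Library size was the sum over 5 RNA classes, without composition factors, features were filtered by filterByExpr, and p-values were adjusted after Benjamini and Hochberg, with calls at an adjusted p under 0.05. The fit had 1 residual degree of freedom and an infinite prior, so p-values use the dispersion trend and not a feature's own spread. Standard errors are the size of the log2 fold change divided by the root of F. The method was tested on simulated data, with changes larger than those fitted for the lysine anticodons and the same spread in both genotypes. That test therefore does not bear on differences as small as theirs. DESeq2 1.42.0, other library sizes and filters, no dispersion trend, the per-library counts and leaving out each knockout library were the alternatives. Shares carry Wilson 95% intervals and no test.

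The text names both anticodon sums, the 5 genes and 5 fragment features per isoacceptor with the highest mean RPM, and any past the threshold, plus features said to be chosen later. Members, lists and rules were chosen with earlier results of these data known. Gene positions are those of the deposited tables; 21 of 34 lysine genes with positions matched a RefSeq tRNA gene exactly and 24 overlapped one. GENCODE gave overlaps with other genes. tRNA sequences were not analysed here.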

Additional observations from a re-analysis of the deposited data

How the results depend on the processing

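No lysine anticodon, gene or fragment was called under any alternative tried. At an unadjusted p under 0.05 the lysine genes numbered 0 or 1 and the lysine fragments 1 to 4 over these settings. Lys-CTT turned from -0.14 to 0.13 with TMM factors, 0.13 with column sums, 0.09 without miRNA reads and 0.19 with DESeq2 (adjusted p over all settings 0.694 to 0.922), whereas Lys-TTT ranged from -0.41 to -0.06 (0.419 to 0.976). The Lys-CTT-3 genes turned with them. In the order TMM, column sums, no miRNA reads and DESeq2, Lys-CTT-3-6 and Lys-CTT-3-1 each had 0.13, 0.12, 0.08 and 0.04, Lys-CTT-3-3 had 0.18, 0.17, 0.13 and 0.08, Lys-CTT-3-2 had 0.16, 0.15, 0.11 and 0.07, and Lys-CTT-3-7 had 0.16, 0.15, 0.11 and 0.06. Lys-CTT-2-2 had 0.06, 0.06 and 0.04 in the first 3. With column sums, the first-class Lys-CTT reads of 32 and 31 nt had 0.15 and 0.05, and the Lys-TTT reads of 34 and 32 nt 0.06 and 0.05. Without miRNA reads, Lys-CTT 32 nt had 0.09 and Lys-TTT 34 and 32 nt 0.01 and 0.00, and with DESeq2 Lys-CTT 32 nt had 0.01. These scalings moved the median of all anticodons from -0.29 towards 0. TMM factors and DESeq2 are built to do so, while column sums or a library size without miRNA reads do not force it. The 5 anticodons called became 8 with TMM (4 higher, 4 lower), 3 with column sums, 0 without miRNA reads (4 at an unadjusted p under 0.05), 3 with DESeq2 and 2 with no dispersion trend, and the cause was not tested. The difference in the share of 30 to 36 nt reads moved from 0.943 to -11.2 points for Lys-CTT in the second class alone, which rests on 68 to 102 reads, and for Lys-TTT from -6.74 to -5.14 there and -4.44 in its most abundant gene alone. The 24 nt Lys-TTT value ranged from 1.15 to 1.43 (adjusted p 0.115 to 0.871) and the 50 nt Lys-CTT value from -0.92 to -0.64 (0.273 to 0.848).

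Leaving out a knockout library left 1 library against 1, with no residual degree of freedom, so it gave values and no test or count of calls. Lys-CTT was then -0.30 to 0.01, Lys-TTT -0.47 to -0.28, and the difference in their ratio -0.147 to 6.42. The share differences were -0.0101 to 1.90 points for Lys-CTT and -7.35 to -6.12 for Lys-TTT. No paired analysis was possible because the wild type has 1 library. Depth limits the 24 nt Lys-TTT read, with 126 to 441 reads, and the second class, and leaves 9 lysine genes with reads untested.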

Other observations

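Among rarely read genes, chosen after their values were seen, Lys-TTT-5-1 (mm10 chr6:100471535-100471598, minus strand, 64 nt) had 22, 38 and 54 reads in the wild type, knockout 1 and knockout 2, or 1.46, 2.47 and 2.55 RPM. Both knockouts were higher, with a log2 fold change of 0.78 and a standard error of 0.48 that did not pass the test (edgeR, adjusted p = 0.435). Lys-CTT-1-1 was the lysine gene in which the second read class was most uneven over libraries. It had 13 of 28 reads in that class in the wild type, 33 of 36 in knockout 1 and 2 of 15 in knockout 2. Its 44 nt reads of that class numbered 9, 17 and 0. The 2 Lys-TTT-2 copies had 23 of 59 reads in the second class in the wild type, 7 of 59 in knockout 1 and 36 of 124 in knockout 2.

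Some lysine reads were longer than the 50 nt upper edge of the gel cut. They made up 0.806%, 0.446% and 0.754% of Lys-CTT and 0.336%, 0.169% and 0.286% of Lys-TTT, beside 0.132%, 0.210% and 0.227% of the other tRNAs.

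The deposited names and RefSeq do not give all Lys-TTT genes the same anticodon. Of the Lys-TTT genes at the position of a RefSeq tRNA gene, 7 have a RefSeq symbol containing ctt and 2 one containing ttt, while 15 Lys-CTT genes have one containing ctt and 0 one containing ttt. All 6 Lys-TTT-1 copies are among the 7. The isoacceptors were kept as the deposited names give them.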
